A study of Mus musculus with 15 samples.

Results

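Endothelial cells line every blood vessel of the kidney, and their transcripts were examined here through 10 genes, Pecam1, Kdr, Flt1, Cdh5, Emcn, Ehd3, Tek, Nos3, Plvap and Vwf. Each was found by its Ensembl identifier on GRCm38 in 1 row of a gene table of 54532 identifiers, and all 10 were measured. The kidneys came from 15 male C57BL/6 mice that were 8 weeks old at the start, in groups of 5. C mice ate a normal diet. M mice ate a 0.25% adenine diet for 4 weeks to induce chronic kidney disease (CKD), and AA mice had the same diet with asiatic acid, a plant triterpenoid, at 30 mg/kg by daily gavage. All groups ate standard chow from week 5 to week 8, when the kidneys were taken, and C and M mice were gavaged with the vehicle (DMSO in saline), so that the groups differ in diet and drug and share the gavage. Values are FPKM, the fragments mapped to a gene per kilobase of its exons and per unit of sequencing depth, so that levels of different genes can be compared.

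Vascular endothelial growth factor (VEGF) from podocytes and tubules signals to the receptors on endothelial cells, and this supply keeps glomerular and peritubular capillaries alive and fenestrated. Angiopoietins act on a second receptor system that sets the stability of the vessel. In chronic kidney disease peritubular capillaries are commonly lost, and endothelial nitric oxide synthase is a standard readout of endothelial function. In whole-kidney RNA, fewer endothelial cells and less RNA per endothelial cell cannot be told apart.

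The receptor genes Flt1, Kdr and Tek are active mainly in endothelium. The 150 bases just before their RefSeq start sites (GRCm38.p6) are shown because ETS factors, which bind sites with a GGAA core, drive many endothelial genes. The capitals mark AGGAAG, a longer form of that core, or its reverse complement CTTCCT, searched on both strands.

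Flt1, chr5:147726012-147726161, minus strand: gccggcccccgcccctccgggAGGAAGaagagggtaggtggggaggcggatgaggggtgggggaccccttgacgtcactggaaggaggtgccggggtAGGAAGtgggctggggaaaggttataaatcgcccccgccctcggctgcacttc

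Kdr, chr5:75978456-75978605, minus strand: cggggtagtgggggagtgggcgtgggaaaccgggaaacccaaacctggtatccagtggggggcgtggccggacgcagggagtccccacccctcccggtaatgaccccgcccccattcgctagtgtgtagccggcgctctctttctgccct

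Tek, chr4:94739139-94739288, plus strand: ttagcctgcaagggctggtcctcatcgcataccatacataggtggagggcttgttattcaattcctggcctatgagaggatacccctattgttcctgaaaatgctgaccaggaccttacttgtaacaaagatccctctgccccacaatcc

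Flt1 held 2 matches, their first bases 129 and 53 bases before the start. The Kdr and Tek windows held no match, although the shorter GGAA is in the Kdr window and its reverse complement TTCC in the Tek window. Of 32851 promoter windows of this length, 19.7% held at least 1 match, so a match describes the sequence and is no evidence of binding. A RefSeq promoter was matched for 5 of the 10 genes, and 2 of these 5, Flt1 and Emcn, held a match.

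The libraries of M mice 1 to 3 stood apart from the other 12. They had 10068 to 12222 genes above 0, against 18695 to 25460, and 2077640 to 2770060 recovered counts outside the mitochondrial genome, against 2225760 to 13576500. Of 12346 genes above 0 in all 12 other libraries, 24.1%, 33.0% and 21.9% were at 0 in M mice 1, 2 and 3, and among the endothelial genes Nos3 and Vwf were at 0 in M mouse 1 and Kdr, Tek and Vwf in M mouse 2. A value of 0 in these libraries therefore says little about expression, and the comparisons of the 10 genes with M are also given for M mice 4 and 5 alone. Summed markers of other cell types differed between the groups. The summed FPKM of 7 proximal tubule markers was 226 to 1722 in C, 3.99 to 98.0 in M and 14.1 to 25.6 in AA. That of 6 macrophage markers was 16.5 to 97.6, 132 to 390 and 93.0 to 141. That of 7 mesenchymal and pericyte markers was 58.1 to 127, 105 to 323 and 196 to 342. Single genes weighed on these sums. Lyz2 averaged 13.3 FPKM in C, 194 in M and 86.9 in AA, whereas Csf1r, also a macrophage marker, averaged 10.3, 4.93 and 3.01. Col1a1 averaged 17.6, 46.6 and 103, whereas Acta2 averaged 28.9, 24.9 and 19.2. In AA vs. C 1 of the 6 macrophage and 2 of the 7 mesenchymal and pericyte genes had a log2 fold change below 0. The part of these cell types in the endothelial values was not tested.

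Plvap was the highest of the 10 genes in all 15 libraries and held 47.8% to 67.5% of their summed FPKM in C, 38.8% to 56.3% in M and 37.2% to 69.3% in AA. In C the medians ran from Plvap at 41.2 FPKM over Pecam1 at 4.81, Emcn at 4.43, Cdh5 at 3.42, Tek at 3.23, Ehd3 at 2.36, Flt1 at 2.03, Nos3 at 1.73 and Kdr at 1.15 down to Vwf at 0.456. The ranges of 8 of the 9 neighbouring pairs in this order overlapped in C, and only Plvap and Pecam1 lay apart. In AA Nos3 was last, with a median of 0.188 FPKM, and Vwf stood above it at 0.953.

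**Figure D1:**
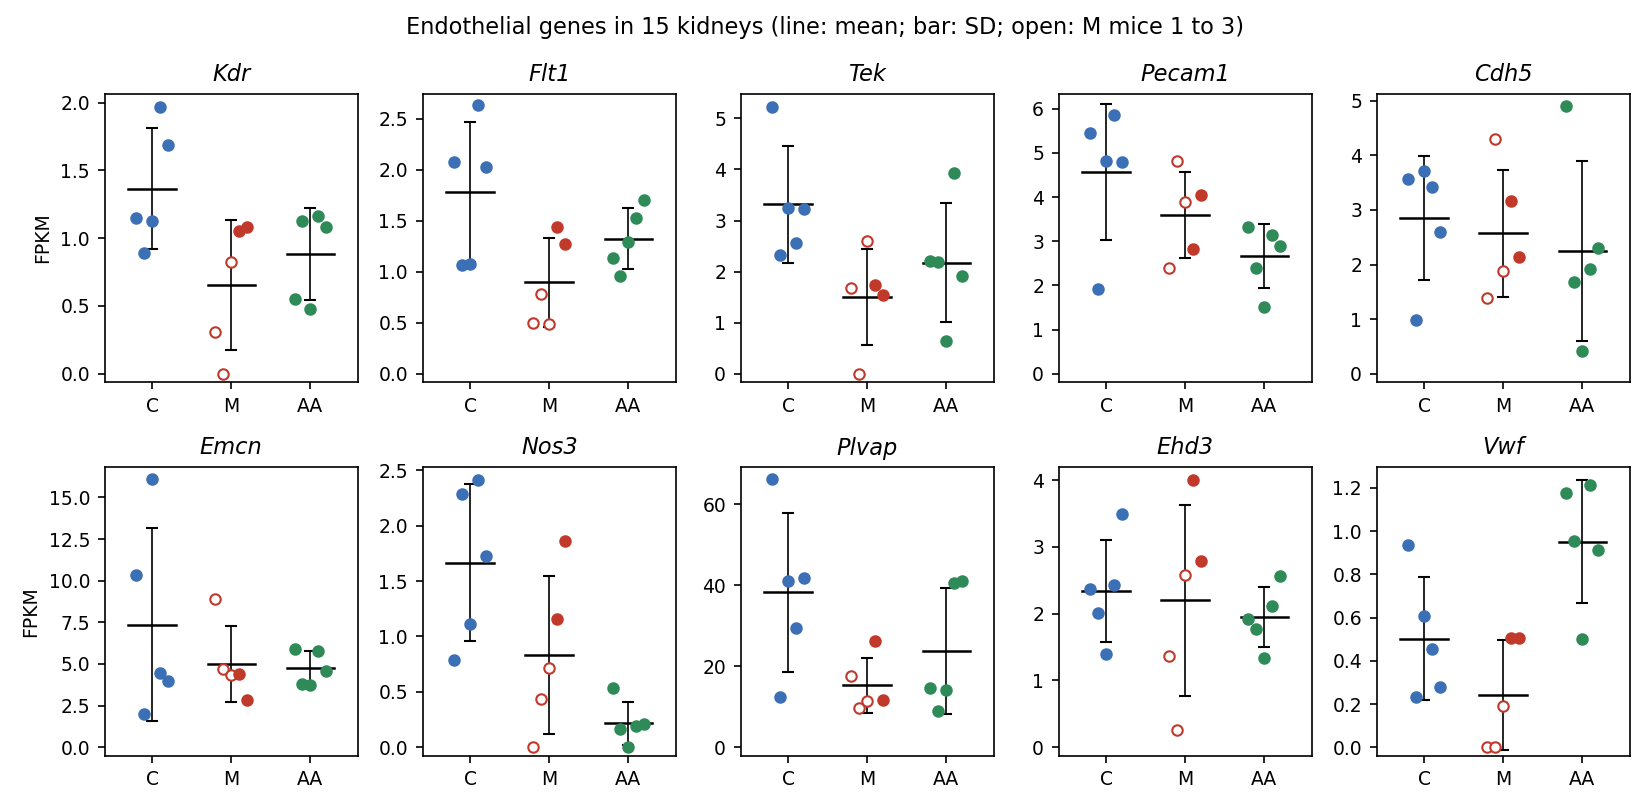
FPKM of the 10 endothelial genes (y axis) in the C, M and AA groups (x axis), 1 point per mouse, 5 mice per group, with the mean (line) and SD (bar) and open points for M mice 1 to 3. The 5 AA values of Nos3 lie below the 5 C values, while the other 9 genes overlap between AA and C.

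A gene was called where limma, fitted over all genes, gave it an adjusted p no higher than 0.05 together with a log2 fold change of FPKM + 1 that reached 1 or -1. M vs. C called 0 of the 10 (background 1.38% of 21153 genes), with 2 of the 10 at an unadjusted p under 0.05 (16.5% of all genes). Limma voom on recovered counts called 0 of the 10, beside 374 of all 21144 genes. AA vs. M called 0 of the 10 (background 12.8% of 19798), with 1 at an unadjusted p under 0.05 (32.1% of all genes). Limma voom called 1 there, beside 4007 of all 19791 genes. AA vs. C called 1 of the 10, Nos3 (background 19.8% of 21898). The M libraries serve in both M vs. C and AA vs. M and the C libraries in both M vs. C and AA vs. C, so these comparisons are not independent.

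The log2 fold changes of all 10 genes were below 0 in M vs. C, with a median of -0.41, where 67.9% of all genes were below 0 and the median over all genes was -0.12. Below that median over all genes lay 9 of the 10, but only 6 with a pseudocount of 0.1 and 5 with limma voom. With M mice 4 and 5 alone, 8 of the 10 were below 0 and their median was -0.19. In AA vs. M the median was 0.12 with 4 genes below 0 (all genes 0.17, 37.7% below 0), and in AA vs. C it was -0.33 with 9 genes below 0 (all genes 0.09, 43.7% below 0).

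**Figure D2:**
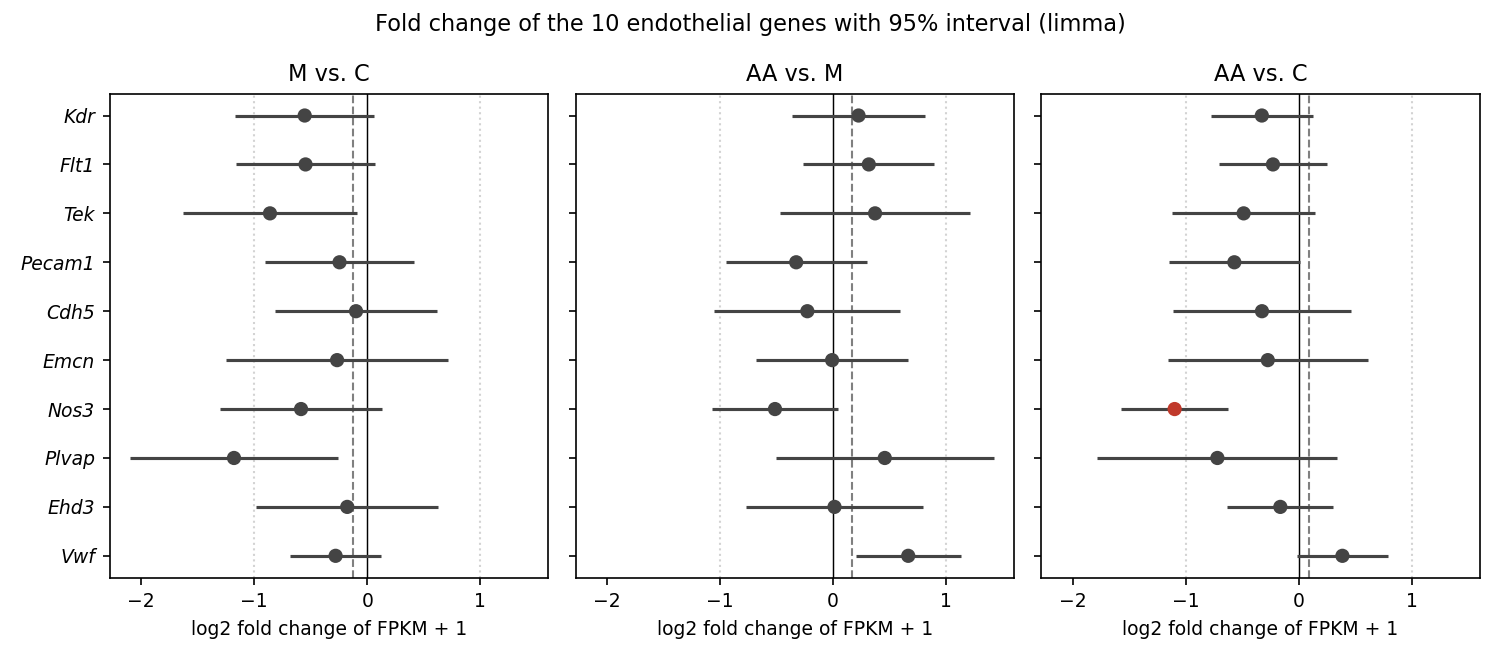
log2 fold change of FPKM + 1 (x axis) for the 10 genes (y axis) in the 3 comparisons, with 95% intervals from limma. The dashed line is the median of all genes tested and the dotted lines mark a log2 fold change of 1 in either direction. Only Nos3 in AA vs. C (red) was called.

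Kdr (chromosome 5, 75932827 to 75978458, minus strand) encodes VEGF receptor 2, the main signalling receptor for VEGF. It measured 1.15, 0.890, 1.13, 1.97 and 1.69 FPKM in C mice 1 to 5, 0.305, 0, 0.824, 1.05 and 1.08 in M mice and 0.553, 1.13, 0.480, 1.17 and 1.09 in AA mice. All M values were below the C mean of 1.37 ± 0.447 (SD, n = 5), but M mice 4 and 5 lay inside the C range. The log2 fold change was -0.55 ± 0.29 (SE) in M vs. C (adjusted p = 0.352), -0.17 with M mice 4 and 5 alone, and -0.33 ± 0.21 in AA vs. C (adjusted p = 0.230).

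Flt1 (chromosome 5, 147561604 to 147726011, minus strand) encodes VEGF receptor 1, which binds VEGF tightly and, as a soluble form, captures it. Its FPKM in mice 1 to 5 was 2.08, 1.07, 1.08, 2.64 and 2.03 in C, 0.498, 0.780, 0.491, 1.43 and 1.27 in M and 1.13, 0.961, 1.29, 1.53 and 1.71 in AA. M mice 1 to 3 were the 3 lowest of all 15 kidneys, and M mice 4 and 5 fell within the C and AA ranges. The log2 fold change was -0.55 ± 0.28 in M vs. C (adjusted p = 0.354), -0.20 with M mice 4 and 5 alone, 0.32 ± 0.27 in AA vs. M (adjusted p = 0.453) and -0.23 ± 0.22 in AA vs. C (adjusted p = 0.425). The positive sign in AA vs. M was not kept for either receptor: with M mice 4 and 5 alone, Flt1 gave -0.03 and Kdr, at 0.22 over all 5 M mice, gave -0.15.

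Tek (chromosome 4, 94739289 to 94874976, plus strand) encodes TIE2, the angiopoietin receptor. Its values were 5.23, 2.32, 3.24, 2.56 and 3.23 FPKM in C, 1.68, 0, 2.59, 1.73 and 1.54 in M and 2.21, 2.19, 0.636, 3.93 and 1.92 in AA. Of the M mice only mouse 3 reached the C range, and 4 of the 5 AA mice were below the C mean of 3.31 ± 1.14. Tek had an unadjusted p of 0.0316 in M vs. C, where its log2 fold change was -0.86 ± 0.36 (adjusted p = 0.256). With M mice 4 and 5 alone it was -0.68 (adjusted p = 0.408).

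Pecam1 (chromosome 11, 106654217 to 106750628, minus strand) encodes PECAM-1 (CD31), the adhesion molecule most used to stain endothelium. It measured 5.45, 1.91, 4.81, 5.85 and 4.80 FPKM in C, 2.39, 4.82, 3.88, 2.82 and 4.04 in M and 3.32, 2.40, 1.52, 3.14 and 2.89 in AA. C mouse 2 was far below the other 4 C mice, which all exceeded every AA mouse. The log2 fold change in AA vs. C was -0.57 ± 0.27 (95% interval -1.15 to 0.01, adjusted p = 0.112), and without C mouse 2 it was the largest of those obtained by leaving out 1 library, -0.79, with an adjusted p of 0.0225. In M vs. C it was -0.25 ± 0.31 (adjusted p = 0.701).

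Cdh5 (chromosome 8, 104101625 to 104144511, plus strand) encodes VE-cadherin, the adherens junction protein of endothelium. It ranged from 0.977 to 3.71 FPKM in C, 1.39 to 4.30 in M and 0.412 to 4.91 in AA, and the AA range contained those of both other groups. Emcn (chromosome 3, 137341067 to 137432185, plus strand), which encodes the sialomucin endomucin of capillary and venous endothelium, ranged from 1.97 to 16.1 FPKM in C, 2.83 to 8.91 in M and 3.76 to 5.92 in AA. The C mice spread most, with C mice 1 and 3 at 10.3 and 16.1 FPKM and the other 3 at 4.43 or less. The log2 fold changes of both genes in the 3 comparisons lay between -0.33 and -0.01, with adjusted p between 0.497 and 0.989, and without C mouse 3 Emcn was above 0 in M vs. C (0.06) and AA vs. C (0.05).

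Nos3 (chromosome 5, 24364810 to 24384474, plus strand) encodes endothelial nitric oxide synthase, which makes the vasodilator nitric oxide. It measured 0.791, 2.29, 1.11, 2.41 and 1.73 FPKM in C, 0, 0.440, 0.713, 1.16 and 1.86 in M and 0.533, 0.161, 0, 0.188 and 0.210 in AA. Every AA mouse was below every C mouse, which in AA vs. C held for 12.5% of all genes tested, and 4 of the 5 AA mice were below 4 of the 5 M mice. The AA mean of 0.219 ± 0.194 (SD, n = 5) was 7.62-fold lower than the C mean of 1.67 ± 0.71. On the scale of FPKM + 1, which understates changes of low genes, the log2 fold change was -1.10 ± 0.22 (adjusted p = 0.00317). Nos3 rested on 0 to 30 recovered counts per AA library and 105 to 380 per C library, and for AA mouse 3 a count of 0 allows up to 0.0484 FPKM.

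The Nos3 call in AA vs. C was lost without C mouse 4, where the log2 fold change was -0.9998 with an adjusted p of 0.0061. It was also lost, at -0.65 (adjusted p = 0.0344), when the shift of each library with GC content was removed, an alternative chosen after seeing the data that called 18.1% of all genes. Against M the log2 fold change of Nos3 in AA was -0.51 ± 0.26 (adjusted p = 0.190), and with M mice 4 and 5 alone it was -1.04 (adjusted p = 0.0221), past both thresholds as were 8.66% of all genes. In M vs. C it was -0.59 ± 0.33 (adjusted p = 0.398), and -0.06 with M mice 4 and 5 alone. Exons of Gm15587 and Atg9b on the opposite strand covered 25.2% and 7.12% of the Nos3 exon bases. Their group means were at most 0.0239 and 0.426 FPKM, and because the counting is not stated to use strand, reads of the 3 genes cannot be separated there.

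Plvap (chromosome 8, 71497765 to 71511752, minus strand) encodes the protein of the diaphragms that span endothelial fenestrae and caveolae, and marks peritubular capillaries and vessels other than mature glomerular capillaries. It measured 66.3, 12.5, 41.2, 29.5 and 41.7 FPKM in C, 17.5, 9.68, 11.5, 26.1 and 11.6 in M and 14.6, 8.93, 14.2, 40.6 and 41.0 in AA. In the C group 4 of the 5 mice were above every M mouse, and C mouse 2 lay among the M mice. The AA mice divided, with AA mice 4 and 5 near the C mean of 38.3 ± 19.7 and the other 3 near the M mean of 15.3 ± 6.75. In M vs. C Plvap had the largest log2 fold change of the 10 genes, -1.18 ± 0.43 (95% interval -2.10 to -0.26, unadjusted p = 0.0163), but its adjusted p was 0.198. With M mice 4 and 5 alone it was -0.91 (adjusted p = 0.622). For AA vs. M it was 0.46 ± 0.45 (adjusted p = 0.523).

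Ehd3 (chromosome 17, 73804134 to 73832094, plus strand) encodes a membrane-trafficking ATPase that in the kidney marks glomerular endothelium. Its values were 2.36, 2.01, 1.40, 2.43 and 3.50 FPKM in C, 1.37, 0.263, 2.58, 4.01 and 2.78 in M and 1.93, 1.78, 1.34, 2.12 and 2.57 in AA. The lowest and the highest of all 15 kidneys were both M mice, mouse 2 and mouse 4. The log2 fold change was -0.18 ± 0.37 in M vs. C (adjusted p = 0.823), where M mice 4 and 5 alone gave 0.41, and -0.17 ± 0.22 in AA vs. C (adjusted p = 0.567). In AA vs. M it was 0.01 ± 0.37 (95% interval -0.77 to 0.80).

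Vwf (chromosome 6, 125546774 to 125686679, plus strand) encodes von Willebrand factor, the clotting glycoprotein that endothelium stores in Weibel-Palade bodies and that platelets also carry. It measured 0.938, 0.234, 0.607, 0.456 and 0.277 FPKM in C, 0, 0, 0.193, 0.507 and 0.507 in M and 1.17, 0.953, 0.502, 1.21 and 0.912 in AA. Among the AA mice 4 of the 5 exceeded all M mice, and AA mouse 3 was just below M mice 4 and 5. In AA vs. M the log2 fold change was 0.66 ± 0.22 (95% interval 0.20 to 1.13), and the adjusted p of 0.0480, reached by 17.8% of all genes, came without the fold needed for a call. The adjusted p was above 0.05 in 7 of the 10 fits that left out 1 library (M mice 1, 2 or 3, or AA mice 1, 2, 4 or 5), and with M mice 4 and 5 alone the log2 fold change was 0.36 (adjusted p = 0.398). In AA vs. C it was 0.38 ± 0.19 (adjusted p = 0.122), and after scaling to TPM -0.06. Limma voom on recovered counts called Vwf higher in AA vs. M and in AA vs. C, beside 4007 of 19791 and 7729 of 21888 genes.

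Plain ratios between 2 of the genes inside 1 library bear on the makeup of the endothelial transcripts rather than their amount. With 1 added to each FPKM, as in the tests here, ratios of low genes such as Vwf also move with the amount. The 3 pairs were picked for the known roles of the genes and with other results of these data known, so that their p-values are not independent support. They were compared between groups in 9 two-sided exact permutation tests over 5 against 5 libraries of the mean log2 ratio of FPKM + 1. For Vwf to Pecam1 the log2 ratio was -1.73, -1.24, -1.85, -2.23 and -2.18 in C, -1.76, -2.54, -2.03, -1.34 and -1.74 in M and -0.99, -0.80, -0.75, -0.91 and -1.03 in AA. All 5 AA libraries lay above all C and all M libraries. The AA mean of -0.89 ± 0.12 (SD, n = 5) was 0.99 above M and 0.96 above C, each with an exact p of 0.00794, the smallest that 5 against 5 can give, and an adjusted p of 0.0357 over the 9 tests.

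Without any pseudocount, Vwf was 0.316 to 0.396 times the FPKM of Pecam1 in AA, 0.0577 to 0.172 times in C and 0 to 0.180 times in M. These plain ratios do not depend on how a library was scaled. Against M mice 4 and 5 alone the log2 ratio differed by 0.65 (exact p = 0.0476, the smallest that 5 against 2 can give), and with a pseudocount of 0.1 the differences were 2.42 from M and 1.59 from C. Of 5 platelet markers, whose sum was 0.619 to 4.61 FPKM in AA, 2.91 to 5.54 in C and 3.47 to 15.9 in M, 3 could be tested. Itga2b fell in AA vs. C (-1.17, adjusted p = 0.00872), while Pf4 averaged 1.74 ± 1.74 FPKM in AA and 1.39 ± 1.14 in C (0.12, adjusted p = 0.850) and Ppbp had -0.08 (adjusted p = 0.826). Gp9 and Gp1ba were at 0 in 5 of 5 AA, 4 of 5 M and 2 of 5 C libraries each. Of 3 markers of lymphatic endothelium, summing to 3.02 to 6.69 FPKM in AA, 0.632 to 3.09 in C and 0.296 to 7.02 in M, only Pdpn, which podocytes also express, rose in AA vs. C (1.10, adjusted p = 0.0134), while Prox1 had -0.20 and Lyve1 0.09. The part of these cells in the ratio was not tested.

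For Ehd3 to Plvap, a glomerular against a peritubular marker, the mean log2 ratio was -3.41 ± 0.87 in C, -2.40 ± 0.63 in M and -2.85 ± 0.79 in AA. On this scale of FPKM + 1 the 5 M libraries were above the C mean. The difference of 1.00 in M vs. C had an exact p of 0.0714 (adjusted p = 0.214). Without C mouse 2, in which Plvap was low, the difference was 1.31 with an exact p of 0.0159. Without any pseudocount, Ehd3 was 0.0340 to 0.161 times the FPKM of Plvap in C and 0.0271 to 0.240 times in M. M mouse 2, at 0.0271 times, was then the lowest of all 15 libraries, and the medians were 0.0823 in C and 0.153 in M. For Kdr to Flt1 the means were -0.21 ± 0.21 in C, -0.22 ± 0.40 in M and -0.31 ± 0.28 in AA, and the exact p of the 3 comparisons was between 0.548 and 0.976 (adjusted p 0.821 to 0.976).

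**Figure D3:**
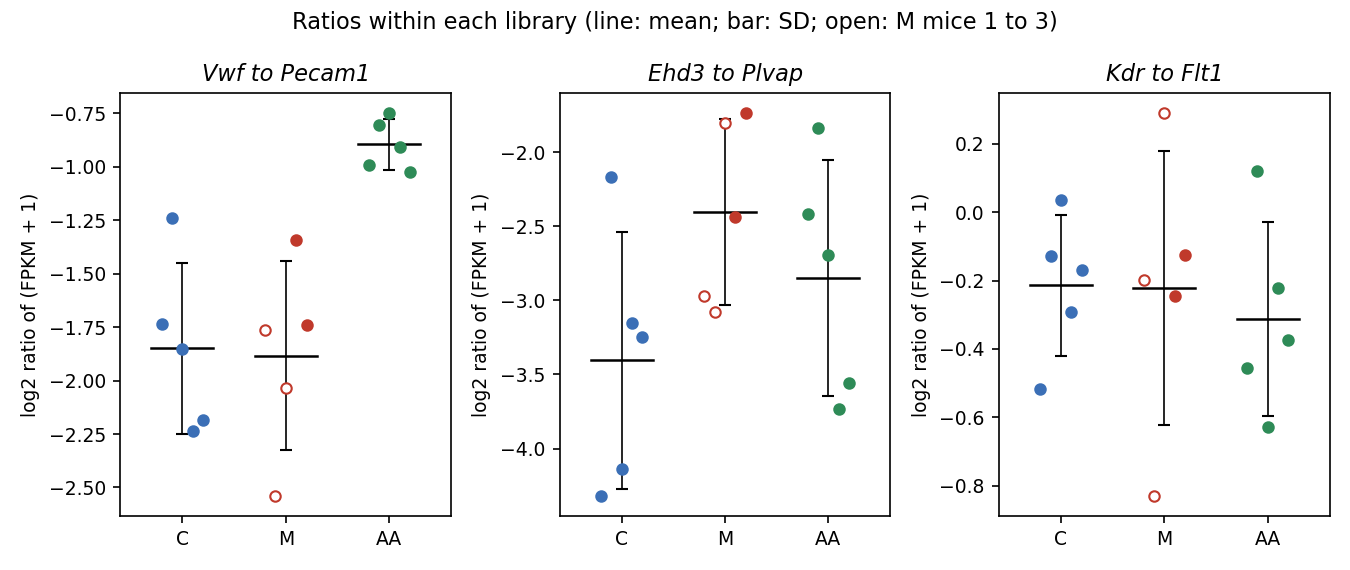
Within-library log2 ratio of FPKM + 1 (y axis) for Vwf to Pecam1, Ehd3 to Plvap and Kdr to Flt1 in C, M and AA (x axis), 1 point per mouse with mean (line) and SD (bar) and open points for M mice 1 to 3. The 5 AA points of Vwf to Pecam1 lie between -1.03 and -0.75, above all C and M points.

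Around these genes, 62 further genes of the endothelial and VEGF-angiopoietin system were followed in 7 lists. In M vs. C 0 of the 62 were called, against 1.38% of all genes. In AA vs. M 1 rose and 1 fell among 59 tested (3.39% called, against 12.8% of all genes), but with M mice 4 and 5 alone 7 of the 59 fell (11.9%, against 6.32% of all genes) and 1 rose. The 7 were Vegfa, Tie1 (-1.62, adjusted p = 0.0115), Cldn5, Egfl7 (-1.83, adjusted p = 0.0137), Sox17 (-2.18, adjusted p = 0.0051), Klf2 (-1.99, adjusted p = 0.0282) and Notch4 (-1.17, adjusted p = 0.0258). The count of calls in AA vs. M thus changed with the M mice used. Calls over all genes changed as well, from 2533 (8.37% of them lower) to 1715 (73.0% lower). With M mice 4 and 5 alone 0 of the 62 were called in M vs. C, but so few genes were called there (14 of all 21153) that this count says little. In AA vs. C 3 rose, 11 fell and 48 were not called, and the 17.7% that fell compare with 9.61% of all genes tested, the 4.84% that rose with 10.2%. The 62 are all protein-coding, whereas the genes tested were not limited to these. Among protein-coding genes with a mean of at least 0.5 FPKM, 4.61% to 35.1% fell over the eighths of GC content. In the eighth that holds the median GC content of the 62, 52.4%, 14.5% fell, so the 17.7% is near that share. The median log2 fold change of the 62 in AA vs. C was -0.06.

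Among the 8 ligands, Vegfa and Vegfb fell in AA vs. C. Vegfa, the main VEGF of podocytes and tubules, averaged 1.59 ± 0.529 FPKM in AA and 16.4 ± 14.9 in C, where C mouse 2 alone had 42.3, and all AA values were below all C values (log2 fold change -2.43 ± 0.42, adjusted p = 0.00156). Vegfb averaged 4.73 ± 1.57 in AA and 14.1 ± 5.62 in C (-1.36 ± 0.29, adjusted p = 0.00430). The other ligands with the highest levels, Vegfd, Angpt2 and Angpt1, had log2 fold changes of 0.63, 0.21 and 0.56 and were not called. In AA vs. M neither VEGF was called (Vegfa -1.08, adjusted p = 0.133, and Vegfb -0.81, adjusted p = 0.107), whereas M mice 4 and 5 alone gave -2.13 for Vegfa (adjusted p = 0.0108). Podocyte markers summed to 5.81 to 17.7 FPKM in C and 12.7 to 17.7 in AA, and the proximal tubule sums above were lower in AA than in C without overlap. Their part in the Vegfa values was not tested.

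Of 7 co-receptors and partners, Tie1, the partner of TIE2, fell in AA vs. C, from 4.63 ± 0.608 to 1.11 ± 0.317 FPKM (-1.42 ± 0.19, adjusted p = 0.000409). The 5 AA mice had 0.857 to 1.64 FPKM and the 5 C mice 3.84 to 5.55, while the M mice spread from 0 to 6.46. Endoglin (Eng) and neuropilin 1 (Nrp1), the highest of this list, had log2 fold changes of 0.38 (adjusted p = 0.285) and 0.58 (adjusted p = 0.0698), and Acvrl1, a receptor for bone morphogenetic proteins, had -0.14, so that the list did not move 1 way.

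Of 16 other pan-endothelial genes, 4 fell in AA vs. C and none rose, where 9.61% of all genes fell and 10.2% rose. The 4 had 54.4% to 60.5% GC. In the eighths of GC content that hold them, 21.8% to 35.1% of protein-coding genes with a mean of at least 0.5 FPKM fell. Cldn5, which encodes the tight junction protein claudin-5, averaged 0.484 ± 0.499 FPKM in AA and 4.15 ± 2.28 in C (-1.73 ± 0.35, adjusted p = 0.00356). Egfl7, which encodes a secreted protein of the vessel matrix, had a log2 fold change of -1.66, Esam, an adhesion molecule gene, -1.51, and Robo4, a vascular guidance receptor gene, -1.04 (adjusted p 0.000625, 0.00367 and 0.00673). Mcam, Adgrf5 and Ramp2, the highest of the rest, were not called (0.07, -0.80 and -0.29). Cldn5 also fell in AA vs. M (-1.53 ± 0.45, adjusted p = 0.0308, or -2.29 with only M mice 4 and 5), a call that was lost without M mouse 2 or 4 or AA mouse 2 or 3 (adjusted p 0.0566 to 0.0706), without the filter on low values, after scaling to TPM and after removal of the GC shift (0.0728, 0.130 and 0.0512).

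Among 10 transcription factors, Klf2, the flow-responsive factor that activates Nos3 and Thbd, fell in AA vs. C (-1.58 ± 0.41, adjusted p = 0.0119), as did Gata2 (-1.40, adjusted p = 0.00194) and Sox17, an arterial factor (-1.23, adjusted p = 0.00538). Fli1, an ETS factor that blood cells also express, rose (1.08 ± 0.29, adjusted p = 0.0140). Epas1, Erg and Sox18, the highest of the rest, had log2 fold changes of 0.59, 0.04 and 0.16 and were not called. Of 9 Notch and arterial genes Notch4 fell (-1.13, adjusted p = 0.00397), and Gja4, Gja5 and Efnb2 were not called (-0.50, 0.74 and -0.58).

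Of 8 coagulation and vasoactive genes Thbd, which encodes the anticoagulant receptor thrombomodulin, rose in AA against both other groups. It averaged 22.7 ± 4.02 FPKM in AA, 7.36 ± 4.71 in M and 5.19 ± 2.00 in C, and every AA mouse was above every other mouse. The log2 fold change was 1.98 ± 0.26 in AA vs. C (adjusted p = 0.000365) and 1.67 ± 0.39 in AA vs. M (adjusted p = 0.0109), with 1.55 (adjusted p = 0.0335) when M mice 4 and 5 stood for M. After scaling to TPM the AA vs. M call was lost (1.61, adjusted p = 0.0916). Plat, Cav1 and Ptgis were not called in AA vs. C (0.13, -0.11 and 0.60). Of 4 activation and adhesion genes, Vcam1, the leukocyte adhesion gene that injured tubules also express, rose in AA vs. C (1.04 ± 0.31, adjusted p = 0.0207), while Icam1, Selp and Sele were not called (0.69, 0.25 and 0.17).

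Some of these calls in AA vs. C rested on 1 library, because a log2 fold change close to 1 crossed the threshold. Robo4 was lost without C mouse 4 or 5 or AA mouse 3 or 4 (-0.997, -0.98, -0.94 and -0.90). Fli1 was lost without C mouse 2 or AA mouse 1 or 4 (0.95, 0.95 and 0.998), Notch4 without C mouse 5 (-0.99), and Vcam1 without C mouse 2 or 3 or AA mouse 1 or 2 (0.99, 0.83, 0.995 and 0.94). After scaling to TPM, Fli1 (0.28) and Vcam1 (0.20) were not called.

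The genes that fell in AA vs. C also shared a base composition that their choice had not used. The GC content of the 11 ran from 54.4% to 61.6%, with a median of 57.6%, against a median of 52.4% over the 62, and Nos3 had 58.7%. The genes of the whole table moved likewise: among protein-coding genes with a mean of at least 0.5 FPKM, the median log2 fold change in AA vs. C was 0.16 in the eighth of lowest GC content and -0.64 in the eighth of highest, and 4.61% and 35.1% of their genes fell. The step that removed the GC shift took out the mean shift of each library within bins of GC content, over all genes tested. After it, 4 of the 11 stayed called (Vegfa -2.15, Esam -1.23, Egfl7 -1.21 and Cldn5 -1.18), and Tie1 and Gata2 stood at -0.97 with adjusted p of 0.00251 and 0.00633. Of the 3 that rose only Thbd stayed, at 2.00 (adjusted p = 0.000415), and 1 gene, Ptgis, became called (1.04, adjusted p = 0.0290). The same step in AA vs. M added Eng (1.34, adjusted p = 0.0349) and Gja5 (1.06, adjusted p = 0.0445). Among the 10 endothelial genes Plvap (60.6% GC) went from -0.72 to -0.18, whereas Vwf (54.2% GC) went from 0.38 to 0.66 (adjusted p = 0.0240) and Pecam1 (49.8% GC) from -0.57 to -0.64 (adjusted p = 0.0717).

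**Figure D4:**
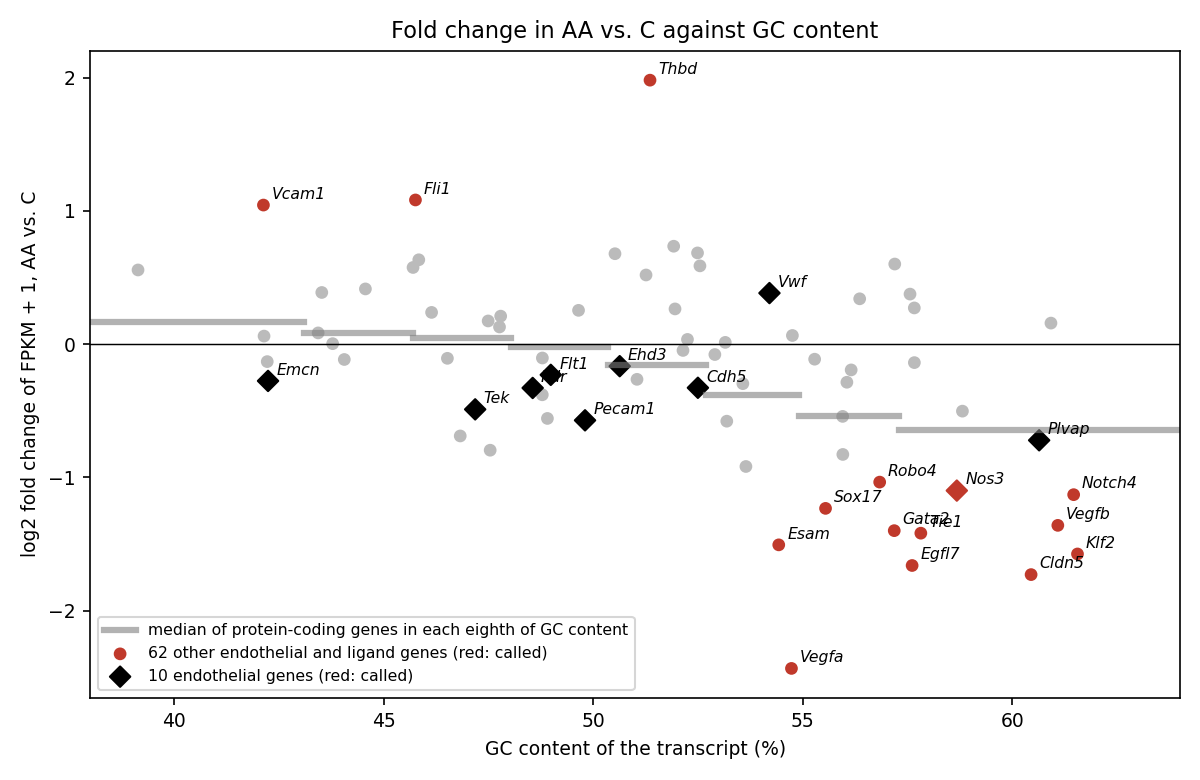
log2 fold change of FPKM + 1 in AA vs. C (y axis) against the GC content of the transcript (x axis) for the 10 endothelial genes (diamonds) and 62 further genes (circles), red where called. Grey bars are medians of protein-coding genes in eighths of GC content, from 0.16 to -0.64, and the 11 circles and 1 diamond called lower lie between 54.4% and 61.6% GC.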

How the data were processed

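RNA from 1 kidney per mouse was enriched for poly(A) and sequenced in pairs. Per the submitters' processing notes the authors used fastp, HISAT2 2.0.5, featureCounts 1.5.0-p3 and mm10, and deposited FPKM. DESeq2 was the authors' own test, run on counts that were not used here. Identifiers were matched to GENCODE M21 (37 of 54532 absent). Products of FPKM and exon length were whole multiples of 1 step in 97.6% to 98.9% of low values (tolerance 0.02), giving counts within a factor of 2. The divisor behind each library's FPKM was 0.518 to 2.30 times its total count but in near-constant proportion to its median-of-ratios size factor, so values are scaled to size factors. Recovered counts outside mitochondrial genes were 6951290 to 13576500 in C, 2077640 to 7142920 in M and 2225760 to 4271180 in AA. Mitochondrial genes took 53.0% to 62.5% of counts in C, 64.0% to 86.8% in M and 69.2% to 87.2% in AA. The C and AA ranges did not overlap, and the part of this difference in the AA vs. C values was not tested.

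Groups came from the sample labels. Genes above 0 in at least 5 of 10 libraries were tested with limma 3.58.1 (R 4.3.3; trend) on log2(FPKM + 1), adjusted over all genes by Benjamini-Hochberg. The script was tested on simulated data, in which 200 of the genes with higher means were raised by 2 on the log2 scale. It called 66.0% of these in M vs. C, 65.5% in AA vs. M and 79.0% in AA vs. C, so changes of that size can be missed. With no change simulated it called 0 genes. Python 3.11.15 with pandas 2.3.3 and matplotlib 3.10.9 did the rest. The genes named were the 10, all genes of the lists that were called and up to 3 further genes per list by mean FPKM. Members, lists and ratio pairs were chosen with earlier results of these data known, so no count over a list is independent evidence. Alternatives were another pseudocount, filters, TPM, quantile normalization, all libraries in one fit, a replicate block, M mice 4 and 5 alone, limma voom on the recovered counts, each library left out and, added after seeing the data, centring by GC content. Same-numbered mice did not deviate together (correlations -0.23 to 0.17), so numbers did not pair them. P-values measure the spread between these mice.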

Additional observations from a re-analysis of the deposited data

Results flagged for a closer look

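One of 39 sets of 5 values (the 10 genes and 3 ratios in each group) held a library far from the others: Pecam1 in C mouse 2, at 1.91 FPKM against 4.80 to 5.85 in the other C mice. Chance flags about 1 in 20 such sets. C mouse 2 was also the lowest C mouse for 8 of the 10 endothelial genes, whereas its Nos3, at 2.29 FPKM, was the second of the C group. The cause was not tested.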

How the results depend on the processing

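The number of the 10 endothelial genes called stayed at 0 in M vs. C except after scaling to TPM. There it was 2, Plvap and Tek, beside 1609 of all 21153 genes. In AA vs. M it was 0 except with M mice 4 and 5 alone (1, Nos3, beside 1715 of all 19798 genes) and with limma voom on recovered counts (1, Vwf, beside 4007 of 19791). In AA vs. C it was 0 with a mean FPKM of at least 1 (which drops Nos3) and 0 after GC centring (chosen after seeing the data). With 1 library left out it was 0 to 1 (0 without C mouse 4). It was 7 after scaling to TPM (Ehd3, Kdr, Nos3, Flt1, Pecam1, Plvap and Tek, all lower), where 6785 of all 21898 genes were called. With limma voom it was 2 (Nos3 lower and Vwf higher), where 7729 of 21888 were. TPM moved the median of all genes to -0.58 (M vs. C) and -0.39 (AA vs. C), with 10 and 9 of the 10 genes below it. In M vs. C 9 of the 10 were below the median of all genes in the main fit. There were 5 below it with limma voom, 6 with a pseudocount of 0.1 and 6 with TPM without mitochondrial genes. With a mean FPKM of at least 1, 6 of the 9 genes left were below it.

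Signs that turned were all of uncalled differences. Under quantile normalization these were Cdh5 (0.094) and Ehd3 (0.12) in M vs. C, and Kdr (-0.15), Flt1 (-0.0810) and Ehd3 (-0.36) in AA vs. M. With M mice 4 and 5 alone they were Ehd3 (0.41) and Vwf (0.024) in M vs. C, and Kdr (-0.15), Flt1 (-0.026), Emcn (0.33) and Ehd3 (-0.58) in AA vs. M. With limma voom Ehd3 was 0.040 in M vs. C, and Emcn 0.13 and Ehd3 -0.16 in AA vs. M. Ehd3 was also -0.087 (TPM) and -0.044 (GC centring) in AA vs. M, and Vwf -0.0620 (TPM) in AA vs. C. With 1 library left out, Cdh5 ran from -0.32 to 0.031, Emcn from -0.57 to 0.061 and Ehd3 from -0.38 to 0.12 in M vs. C. In AA vs. M, Cdh5 ran from -0.48 to 0.035, Emcn from -0.15 to 0.19 and Ehd3 from -0.29 to 0.21, and in AA vs. C Emcn from -0.58 to 0.051.

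Of the ratios, Ehd3 to Plvap ran from 0.77 to 1.31 in M vs. C with 1 library left out. Kdr to Flt1 ran from -0.14 to 0.14 in M vs. C (0.030 with M mice 4 and 5) and from -0.24 to 0.037 in AA vs. M (0.15 with a pseudocount of 0.1). Vwf to Pecam1 ran from -0.17 to 0.13 in M vs. C (0.31 with M mice 4 and 5). With the replicate block its differences of 0.99 (AA vs. M) and 0.96 (AA vs. C) had a sign-flip p of 0.0625, the smallest that 5 pairs allow, and the block lowered the calls over all genes in M vs. C from 291 to 152. In the other comparisons the block moved that count from 2533 to 2217 (AA vs. M) and from 4346 to 4345 (AA vs. C), and it changed the call of none of the 10 genes and of none of the further genes called.

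Calls over all genes in M vs. C were 14 with M mice 4 and 5, 33 without the filter, 448 with a mean of at least 1 FPKM, 786 with all 15 libraries, 1609 under TPM and 4 to 954 with 1 library left out. In AA vs. M they were 422 under TPM and 4007 with limma voom (main 2533), and in AA vs. C 6785 under TPM, 7190 under TPM without mitochondrial genes, 7474 with a pseudocount of 0.1 and 7729 with limma voom (main 4346). The share of calls that were lower went from 80.4% to 98.1% (TPM) or 7.14% (M mice 4 and 5 alone) in M vs. C, in AA vs. M from 8.37% to 30.5% (quantile) or 73.0% (M mice 4 and 5 alone, where most calls were lower), and from 48.4% to 87.3% (TPM) in AA vs. C. The causes were not tested. Nos3 rested on a median of 14 counts in AA and 40 in M, and Vwf on 42 in M.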

Other observations

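Nos3 was set against Pecam1 inside each library after its values had been seen, and no test was made. Nos3 was 0.145 to 1.2 times the FPKM of Pecam1 in C, 0 to 0.461 times in M and 0 to 0.160 times in AA. The medians were 0.360, 0.184 and 0.0670. AA mouse 1, at 0.160 times, passed C mouse 1, at 0.145 times, so the groups touch on this ratio although Nos3 itself did not overlap between AA and C. AA mouse 3 was the lowest AA mouse for 8 of the 10 endothelial genes.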
